A study of Mus musculus with 4 samples.

Results

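Described here are 10 genes of the nuclear end of the Hippo pathway in MC38 tumor cells: the TEAD transcription factor genes Tead1, Tead2, Tead3 and Tead4, the coactivator genes Yap1 and Wwtr1 (the gene for TAZ), and the target genes Cyr61 (also named Ccn1), Ctgf (also named Ccn2), Ankrd1 and Amotl2. They were chosen by name, and all 10 were found among the 53379 gene identifiers of the count files. The set was also selected on the CPM (counts scaled to 1000000 per library) and log2 fold changes of these same libraries, responder against non-responder, which were known when it was drawn up (Tead4 among the leading genes), so the values of the 10 genes in that contrast are a description and carry no test. The responder group is 2 libraries of tumor cells sorted from C57BL/6 mice that carried MC38-GFP+ tumors and were treated with anti-PD-1 antibody, and the non-responder group is 2 libraries from mice of the same strain, tumor and treatment. MC38 is an established mouse colon adenocarcinoma line, grown here under the skin from 50000 injected cells. Every mouse received 100 µg of antibody per dose, a course described as sub-optimal, on days 12, 15, 18 and 22, so the groups as labelled differ only in outcome and neither is untreated. The labels give no criterion of response and do not say whether each library is a different animal, so the spread between libraries may be technical.

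The Hippo pathway is a kinase cascade that restrains growth. Its kinases MST1 and MST2 (genes Stk4 and Stk3) activate LATS1 and LATS2, which phosphorylate YAP and TAZ and hold them in the cytoplasm. Unphosphorylated YAP and TAZ enter the nucleus, bind no DNA themselves, and switch on genes through the TEAD factors, so that transcript levels of the coactivators do not report their activity. Transcripts of CYR61, CTGF, ANKRD1 and AMOTL2 are commonly used as readouts of that activity.

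Total counts per library were 18447041 to 21754063. The labelled cell type was compared with marker lists. Of 9 epithelial markers, 8 stayed under 1 CPM in every library, Epcam, Krt8, Krt18 and Krt19 among them. Summed leukocyte markers were 14.8 and 95.1 CPM in responder replicates 1 and 2 and 96.0 and 267 CPM in non-responder replicates 1 and 2. On average 14 of 14 tested markers were lower in responders, with Tyrobp at 0 in responder replicate 1. The groups did not overlap for 3 of the 14, where 36.5% of all tested genes did not overlap. Summed fibroblast markers came to 15088 and 13326 CPM in responder and 19166 and 23830 CPM in non-responder libraries. Of 17 tested markers, 15 were lower and 2 higher in responders, and the groups did not overlap for 12, all lower. Summed endothelial markers were 15.8 and 19.3 CPM against 27.8 and 31.0 CPM, and 6 of 10 stayed under 1 CPM everywhere. Of the 4 tested, 2 were higher and 2 lower in responders. The highest of the list, Pecam1, had 6.34 and 11.6 against 17.8 and 25.5 CPM. Of the fibroblast markers, Col3a1 alone had 6897 and 5792 CPM in responder and 7598 and 13391 CPM in non-responder libraries. Thy1 and Pi16 stayed under 1 CPM in every library. Which cells made the marker transcripts, the tumor cells included, was not tested. In bulk RNA, fewer cells of a type and less RNA per cell cannot be told apart.

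TEAD factors recognise the sequence GGAATG, or CATTCC on the other strand. Promoter windows of 300 bases, 250 before and 50 after the transcript start, were available from RefSeq (GRCm38.p6) for 7 of the 10 genes. Those of Tead1, Tead4 and Ctgf were not in the table. Tead3 had 3 windows and Wwtr1 had 2, and the window nearest the counted gene's 5′ end was used. The motif was present in 6 of these 7 windows, whereas 14.7% of all 32851 windows of this length held it. That share counts every window of a gene. Ankrd1 had 2 matches, which 1.36% of all windows had, and Tead2 had none. The windows of 3 targets and of both coactivators are shown because each holds the motif, written in capitals: Cyr61 (chr3:145649936-145650235, minus strand), Ankrd1 (chr19:36119795-36120094, minus strand), Amotl2 (chr9:102717554-102717853, plus strand), Yap1 (chr9:8004547-8004846, minus strand) and Wwtr1 (chr3:57575861-57576160, minus strand).
Cyr61: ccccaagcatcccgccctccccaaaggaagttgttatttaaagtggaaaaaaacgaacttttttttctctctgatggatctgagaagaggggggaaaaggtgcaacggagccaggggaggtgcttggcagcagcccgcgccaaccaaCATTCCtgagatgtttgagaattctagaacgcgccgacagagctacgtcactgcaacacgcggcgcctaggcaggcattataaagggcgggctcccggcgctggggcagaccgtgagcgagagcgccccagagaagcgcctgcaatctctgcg
Ankrd1: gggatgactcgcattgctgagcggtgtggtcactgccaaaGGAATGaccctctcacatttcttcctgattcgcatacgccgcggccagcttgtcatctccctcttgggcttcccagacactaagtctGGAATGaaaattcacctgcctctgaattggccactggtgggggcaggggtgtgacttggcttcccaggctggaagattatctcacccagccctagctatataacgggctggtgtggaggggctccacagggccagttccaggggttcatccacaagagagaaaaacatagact
Amotl2: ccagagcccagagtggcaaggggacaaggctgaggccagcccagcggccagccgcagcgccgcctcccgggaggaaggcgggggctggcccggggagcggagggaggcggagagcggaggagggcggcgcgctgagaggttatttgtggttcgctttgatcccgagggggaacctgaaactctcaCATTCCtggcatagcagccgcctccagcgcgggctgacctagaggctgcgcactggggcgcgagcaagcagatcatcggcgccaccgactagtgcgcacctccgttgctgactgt
Yap1: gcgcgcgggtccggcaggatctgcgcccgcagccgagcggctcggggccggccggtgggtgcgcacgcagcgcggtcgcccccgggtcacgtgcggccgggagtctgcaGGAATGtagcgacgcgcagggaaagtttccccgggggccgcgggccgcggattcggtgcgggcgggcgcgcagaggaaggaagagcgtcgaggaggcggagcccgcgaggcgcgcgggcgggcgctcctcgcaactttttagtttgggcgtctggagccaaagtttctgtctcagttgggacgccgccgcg
Wwtr1: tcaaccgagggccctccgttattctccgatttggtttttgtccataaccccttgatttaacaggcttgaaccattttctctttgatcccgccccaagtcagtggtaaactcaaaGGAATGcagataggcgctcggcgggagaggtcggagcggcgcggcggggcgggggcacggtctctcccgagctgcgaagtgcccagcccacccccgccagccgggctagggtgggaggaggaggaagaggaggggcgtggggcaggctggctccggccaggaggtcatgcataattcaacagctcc

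The match lay 103 to 98 bases before the start of Cyr61 and 65 to 60 before that of Amotl2, on the reverse strand in both. Ankrd1 had forward matches at 210 to 205 and at 123 to 118 bases before the start. The matches of Yap1, Wwtr1 and Tead3 were forward, from 141, 136 and 182 bases before the start. The window of Amotl2 begins from a start 1132 bases inside the gene as counted, and the others from a start within 39 bases of the counted gene's 5′ end. The longer form ACATTCC, which contains CATTCC, was in the windows of Cyr61, Amotl2 and Yap1, and in 3.85% of all windows. None of the 7 windows held the AP-1 motif TGANTCA or a CArG box, the site of serum response factor, on either strand. These are in 7.81% and 1.63% of all windows. A match describes letters only, and a lack of one says nothing of a factor bound elsewhere.

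**Figure D1:**
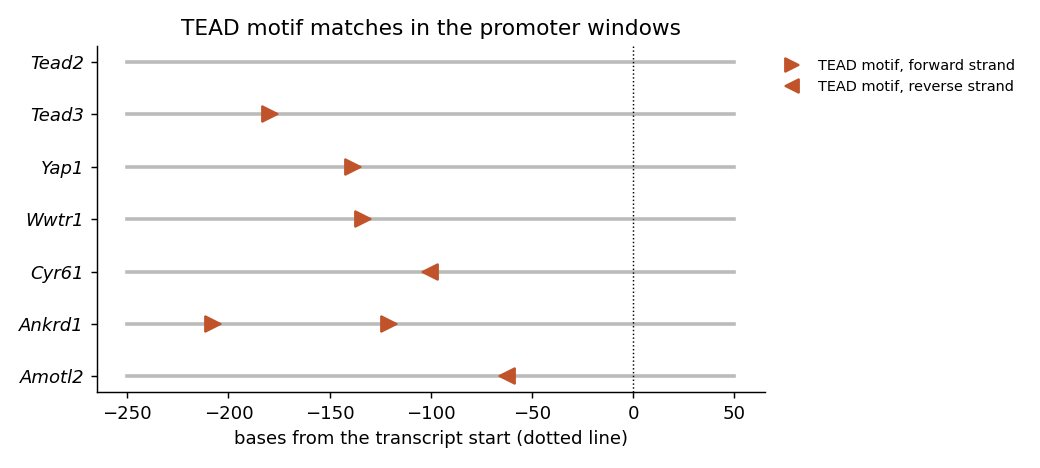
Position of each GGAATG match in the promoter windows of 7 genes, in bases from the transcript start (dotted line). Arrowheads point right for the forward and left for the reverse strand; 6 of the 7 windows hold a match, all before the start, and Tead2 holds none.

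Levels of different genes were set side by side as TPM, in which counts are divided by the exon length of the gene and scaled to a sum of 1000000 per library. Over the 4 libraries the order was Cyr61 (471 ± 203 TPM, SD, n = 4), Wwtr1 (393 ± 84.4), Ankrd1 (127 ± 39.6), Tead1 (103 ± 13.7), Tead2 (88.7 ± 5.08), Yap1 (72.7 ± 7.91), Amotl2 (56.9 ± 13.8), Tead4 (39.4 ± 13.3), Tead3 (8.70 ± 1.26) and Ctgf (4.74 ± 2.71). The first and last of these genes are close relatives, both secreted matricellular proteins. Cyr61 stood at the 98.3rd percentile of tested genes and Ctgf at the 23.6th. Between neighbours in the order, the ranges over libraries were apart for Wwtr1 and Ankrd1, for Tead2 and Yap1, and for Tead4 and Tead3, and overlapped for the other pairs. Cyr61 was above Wwtr1 in both responder libraries and below it in both non-responder libraries.

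Among the DNA-binding TEAD factors, Tead4 had a 1.80-fold higher level in responder tumor cells and the other 3 differed little. Tead4 (ENSMUSG00000030353, chromosome 6 from 128224288 to 128300823, mm10), best known for its part in the trophectoderm of the early mouse embryo, had 52.0 and 46.9 CPM in responder replicates 1 and 2, against 26.1 and 28.8 CPM in non-responder replicates 1 and 2. Both responder libraries lay above both non-responder libraries, and the spread inside each group was small. The group means were 49.5 ± 3.64 and 27.5 ± 1.88 CPM (SD, n = 2 each), a log2 fold change of 0.85 with a standard error (SE) of 0.17, or 1.80-fold. Leaving out 1 library at a time moved it between 0.77 and 0.92. Of all 13792 tested genes, 363 (2.63%) had a log2 fold change at least as high.

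Tead1, a TEAD factor needed for heart growth in the mouse embryo (ENSMUSG00000055320, chromosome 7 from 112679318 to 112906807), had 400 and 325 CPM in responder and 453 and 343 CPM in non-responder libraries. The groups overlapped (log2 fold change -0.14, SE 0.22), and the sign turned without non-responder replicate 1 (0.08) or responder replicate 2 (0.01). Tead2, expressed early in mouse development (ENSMUSG00000030796, chromosome 7 from 45215753 to 45233644), had 118 and 113 CPM against 127 and 103 CPM, a log2 fold change of 0.00 (SE 0.18) that was just below 0 with DESeq2 or RLE scaling (-0.004 in each). It was -0.14 with non-responder replicate 2 left out and -0.03 with responder replicate 1 left out. Both responder libraries lay between the non-responder libraries. Tead3, known from the placenta (ENSMUSG00000002249, chromosome 17 from 28331671 to 28350805), had 9.17 and 9.53 CPM against 10.8 and 11.9 CPM (log2 fold change -0.28, SE 0.23). Its groups did not overlap, but the counts were few: responder replicate 2 had 182 reads with an exact Poisson 95% interval of 8.19 to 11.0 CPM, and non-responder replicate 1 had 224 reads with an interval of 9.45 to 12.3 CPM. Such intervals cover counting error only.

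The summed TEAD transcript was similar in the groups while its make-up differed. Summed TPM were 263 and 228 in responder and 247 and 222 in non-responder libraries. Tead4 made up 20.5% and 20.8% of that sum in responder libraries and 10.4% and 13.9% in non-responder libraries, and Tead1 41.7% and 38.1% against 47.9% and 43.9%. Tead2 made up 34.9% and 37.7% against 38.2% and 37.4%, and Tead3 2.95% and 3.45% against 3.53% and 4.71%. Tead1 was the most abundant of the family per length throughout, at 2.04 and 1.84 times the TPM of Tead4 in responder libraries and 4.59 and 3.16 times in non-responder libraries.

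**Figure D2:**
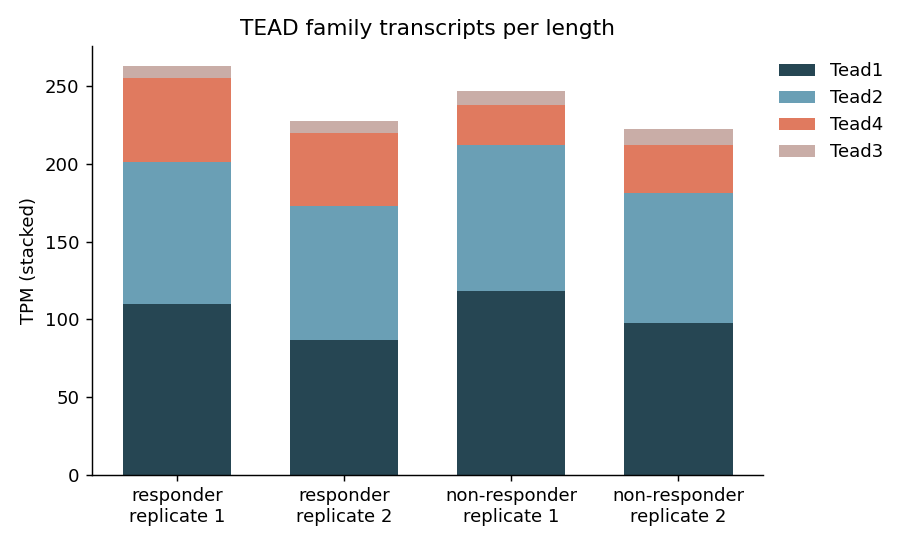
TPM of the 4 TEAD genes stacked per library, 2 responder libraries on the left and 2 non-responder libraries on the right. The totals run from 222 to 263 TPM, and the Tead4 layer is 20.5% and 20.8% of the stack in responder libraries against 10.4% and 13.9% in non-responder libraries.

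Of the coactivators, TAZ was the more abundant transcript and YAP the steadier. Yap1 (ENSMUSG00000053110, chromosome 9 from 7931999 to 8004596) had 190 and 171 CPM in responder and 171 and 197 CPM in non-responder libraries. The groups overlapped almost wholly (log2 fold change -0.03, SE 0.18), and the sign turned without non-responder replicate 2 (0.07) or responder replicate 2 (0.05). Wwtr1 (ENSMUSG00000027803, chromosome 3 from 57455649 to 57575910) had 489 and 410 CPM in responder and 690 and 456 CPM in non-responder libraries. Non-responder replicate 1 alone stood high, and the other 3 libraries lay close together (log2 fold change -0.35, SE 0.25). Without non-responder replicate 1 the value was -0.02. Per length, Wwtr1 had 4.98 and 4.65 times the TPM of Yap1 in responder libraries and 7.80 and 4.49 times in non-responder libraries.

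The target genes did not share a pattern over the libraries. Cyr61, a secreted matricellular protein that binds integrins (ENSMUSG00000028195, chromosome 3 from 145646976 to 145649981), had 304 and 391 CPM in responder replicates 1 and 2, against 219 and 125 CPM in non-responder replicates 1 and 2. Both responder libraries were higher than both non-responder libraries. Its means were 348 ± 61.5 and 172 ± 66.4 CPM (SD, n = 2 each), a log2 fold change of 1.02 (SE 0.29), or 2.03-fold, and 222 tested genes (1.61%) had one at least as high. Leaving out non-responder replicate 2 gave 0.67, and leaving out non-responder replicate 1 gave 1.48.

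Cyr61 is also an immediate early gene, induced by serum and by handling of cells. In a list of 21 immediate early and heat-shock genes, which does not hold Cyr61, 19 were higher in responders and 2 lower, with a median log2 fold change of 0.76, against -0.01 for all tested genes. The groups did not overlap for 14 of the 21, 13 higher and 1 lower, where 36.5% of all tested genes did not overlap. The list median was 0.31 with responder replicate 2 left out, where 18 were higher. Their summed level was 3203 and 5419 CPM in responder and 2618 and 2344 CPM in non-responder libraries. Responder replicate 2 was highest and non-responder replicate 2 lowest both in that sum and in Cyr61. Whether serum or handling had any part in the levels of these genes or of Cyr61 was not tested. The other 3 targets were each highest in responder replicate 1.

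Ctgf, the matricellular relative of Cyr61 (ENSMUSG00000019997, chromosome 10 from 24595442 to 24598683), was scarce. It had 123 and 38 reads in responder and 41 and 100 reads in non-responder libraries, or 6.10 and 1.99 CPM against 1.98 and 4.48 CPM. Responder replicate 1 and non-responder replicate 2 were high and the other 2 libraries low, so the groups overlapped fully. The exact Poisson 95% intervals were 5.07 to 7.27 and 1.41 to 2.73 CPM in responder and 1.42 to 2.69 and 3.65 to 5.45 CPM in non-responder libraries, so libraries of 1 group differed beyond counting error. The log2 fold change was 0.32 (SE 0.62), but -0.70 with responder replicate 1 left out and -0.14 with non-responder replicate 1 left out. Per length, Cyr61 had 70.7 and 279 times the TPM of Ctgf in responder and 156 and 39.4 times in non-responder libraries.

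Ankrd1, a nuclear ankyrin-repeat protein first known from stressed heart muscle (ENSMUSG00000024803, chromosome 19 from 36111965 to 36119844), had 80.3 and 50.3 CPM in responder and 75.0 and 38.6 CPM in non-responder libraries. The spread inside each group exceeded the difference between groups (log2 fold change 0.20, SE 0.39), and the sign turned without responder replicate 1 (-0.18) or non-responder replicate 2 (-0.20). Amotl2, an angiomotin-family scaffold that binds YAP and holds it out of the nucleus (ENSMUSG00000032531, chromosome 9 from 102716672 to 102733418), had 128 and 93.6 CPM in responder and 74.6 and 91.3 CPM in non-responder libraries. Responder replicate 1 stood apart, while responder replicate 2 lay just above non-responder replicate 2, with counting intervals of 89.3 to 98.0 and 87.4 to 95.4 CPM. The log2 fold change of Amotl2 was 0.41 (SE 0.21) and was 0.17 without responder replicate 1.

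**Figure D3:**
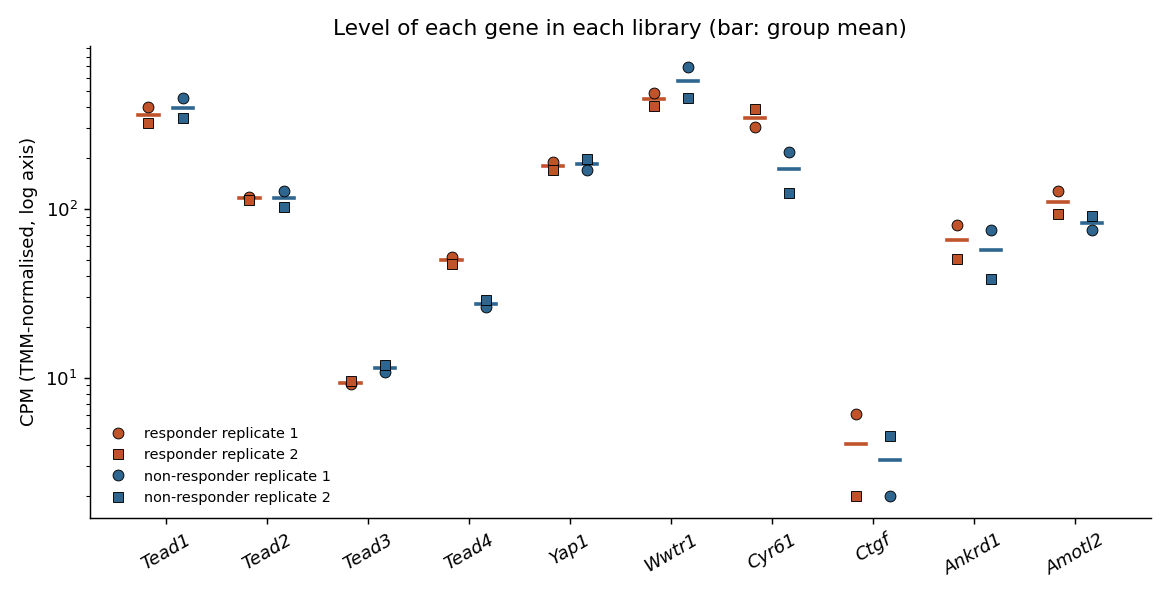
CPM of the 10 genes (log axis) in each library, with responder libraries left of non-responder libraries, circles for replicate 1, squares for replicate 2 and a bar at each group mean. Tead4 and Cyr61 are set apart between groups (means 49.5 against 27.5 CPM and 348 against 172 CPM), and Ctgf and Ankrd1 spread more within groups than between them.

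Taking the 10 genes as a set, 6 were higher and 4 lower in responders, and the median log2 fold change was 0.10. The groups did not overlap for 4 of them (Tead4, Cyr61 and Amotl2 higher, Tead3 lower), where 36.5% of all tested genes did not overlap, 18.8% higher and 17.7% lower. All 10 passed the filter on low counts. Under the alternatives run, Tead4, Cyr61, Amotl2, Tead3 and Wwtr1 kept the sign of their log2 fold change, and Tead1, Tead2, Yap1, Ctgf and Ankrd1 did not.

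**Figure D4:**
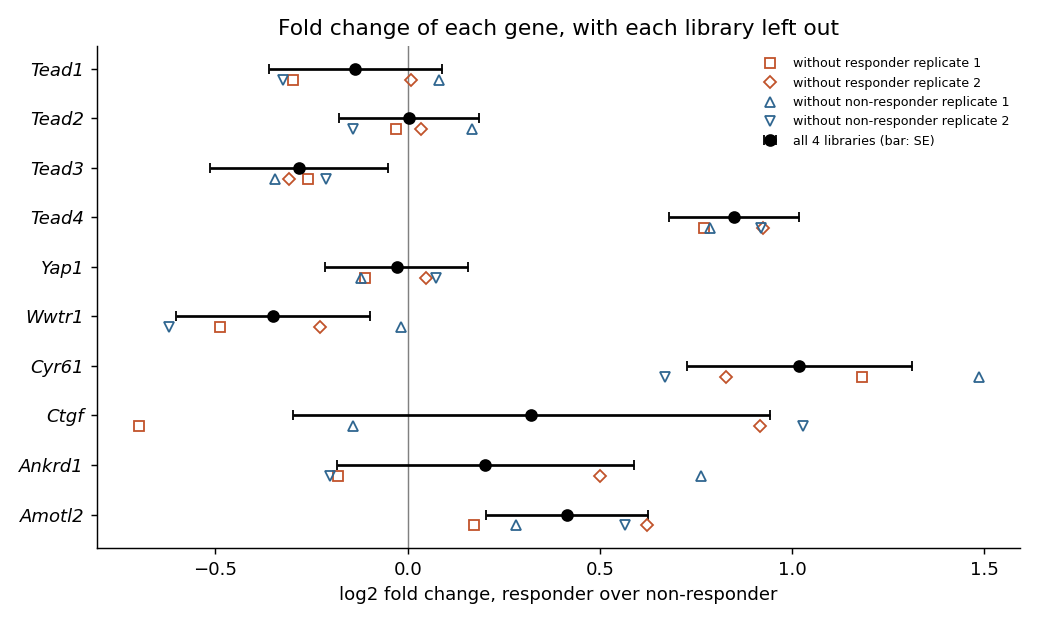
Log2 fold change of responder over non-responder for the 10 genes, with all 4 libraries (black, bar: SE) and with each library left out (open symbols, orange for a responder and blue for a non-responder library). Tead4 runs from 0.77 to 0.92 and Cyr61 from 0.67 to 1.48, whereas the open symbols of Tead1, Tead2, Yap1, Ctgf and Ankrd1 fall on both sides of 0.

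Further pathway genes were taken from lists of known members and tested within a fit over all 13792 genes. Under the quasi-likelihood test of edgeR, adjusted by Benjamini-Hochberg, 0 genes in all passed an adjusted p of 0.05 (0.0%) and 856 (6.21%) had an unadjusted p under 0.05. DESeq2 called 62 genes (0.45%) and limma-voom 0 (875 at an unadjusted p under 0.05). After the low-count filter and with all 4 libraries, no gene of the 5 pathway lists was called by DESeq2 or limma-voom. Nor was any called by edgeR, with or without a replicate block. With no such filter edgeR called Fat4 and Igfbp3, among 212 genes called of 29612 tested in that setting.

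Genes of the kinase core differed little between the groups. Of its 7 genes (Stk3, Stk4, the scaffold gene Sav1, Lats1, Lats2, and the LATS cofactor genes Mob1a and Mob1b), 1 was higher and 6 lower in responders, none at an unadjusted p under 0.05, with a median log2 fold change of -0.10. The groups overlapped in all 7, where 36.5% of all tested genes did not overlap. Stk3 had 212 and 165 CPM in responder and 287 and 170 CPM in non-responder libraries (log2 fold change -0.27, SE 0.28, edgeR adjusted p = 0.901), and 0.16 without non-responder replicate 1. Lats2, a kinase that is itself a YAP target, had 37.1 and 31.6 against 31.0 and 32.2 CPM (log2 fold change 0.12, SE 0.18, edgeR adjusted p = 0.933), and -0.001 without responder replicate 1. Mob1a had 269 and 223 against 280 and 261 CPM (log2 fold change -0.13, SE 0.19, edgeR adjusted p = 0.934), and values of -0.002 with responder replicate 2 left out and -0.28 with responder replicate 1 left out. The lean of the list turned on single libraries: 6 of 7 were higher with non-responder replicate 1 left out, 4 with responder replicate 2 left out and 0 with responder replicate 1 left out. With library size alone in place of TMM, 2 were higher. With the replicate number as a block, 1 was higher and 6 lower, though it is not known that the numbers pair the samples.

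Upstream regulators, which feed junction, polarity and cytoskeletal cues to the kinases, had 12 of 17 tested genes higher and 5 lower, at a median of 0.05. The number higher was 7 without non-responder replicate 2 or responder replicate 1. The groups did not overlap for 5 of the 17, 1 higher and 4 lower, where 36.5% of all tested genes did not overlap. Only Fat4, an atypical cadherin, had an unadjusted p under 0.05, and was lower, where 3.63% of all tested genes were lower at that level. It had 6.44 and 9.21 CPM in responder and 10.7 and 21.3 CPM in non-responder libraries (log2 fold change -1.03, SE 0.37, edgeR adjusted p = 0.746). Leaving out non-responder replicate 2 gave -0.45, and leaving out non-responder replicate 1 gave -1.44. Fat4 and the leukocyte and endothelial sums given above were all lowest in responder replicate 1 and highest in non-responder replicate 2. The fibroblast sum was also highest in non-responder replicate 2, but lowest in responder replicate 2. The part of such cells in the level of Fat4 was not tested. Frmd6, a FERM-domain protein, had 119 and 89.0 against 131 and 134 CPM (log2 fold change -0.35, SE 0.20, edgeR adjusted p = 0.829), and Rassf1, a scaffold that binds the MST kinases, 66.5 and 58.2 against 46.3 and 54.6 CPM (log2 fold change 0.31, SE 0.18, edgeR adjusted p = 0.829). Dchs1, the ligand of Fat4, was too low to be tested.

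Vestigial-like proteins share the TEAD surface with YAP and TAZ. Vgll1 and Vgll2 were at or near 0, Vgll2 with no read in any library. Vgll3 had 66.9 and 25.4 CPM in responder and 43.9 and 38.9 CPM in non-responder libraries (log2 fold change 0.16, SE 0.49, edgeR adjusted p = 0.969), and -0.71 without responder replicate 1. Vgll4, a repressor of TEAD, had 40.4 and 34.7 against 39.9 and 47.1 CPM (log2 fold change -0.21, SE 0.18, edgeR adjusted p = 0.876).

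A further 18 genes of a published YAP and TEAD target signature went both ways. In responders 10 were higher and 8 lower, at a median of 0.07, and the groups did not overlap for 8 of 18, where 36.5% of all tested genes did not. Without responder replicate 1, 6 were higher. At an unadjusted p under 0.05 there were 2, both lower, where 3.63% of all tested genes were lower at that level. Rbms3, an RNA-binding protein, had 31.9 and 30.5 CPM in responder and 49.8 and 39.1 CPM in non-responder libraries (log2 fold change -0.51, SE 0.18, edgeR adjusted p = 0.746). Igfbp3, a secreted binder of insulin-like growth factors, had 6 and 0 reads in responder and 65 and 12 reads in non-responder libraries (edgeR adjusted p = 0.789), so that 1 library held most of its reads. Foxf2, a forkhead factor, had 8.67 and 8.22 against 5.46 and 6.14 CPM (log2 fold change 0.54, SE 0.26, edgeR adjusted p = 0.796). The 4 members of highest CPM, named after their values were seen, went both ways. The membrane-repair gene Myof and the receptor kinase gene Axl had log2 fold changes of 0.22 (SE 0.21) and 0.24 (SE 0.21). Asap1, a regulator of ARF GTPases, had -0.05 (SE 0.20), and 0.12 with responder replicate 2 left out. F3, the tissue factor gene, had -0.62 (SE 0.47), and -0.09 with responder replicate 2 left out. Lats2 and Ptpn14 stand in more than one list.

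Cyr61, Ctgf and Ankrd1 are also known targets of serum response factor and its coactivator MRTF. Of 11 tested cytoskeletal targets of that factor, 5 were higher and 6 lower, at a median of -0.003; 9 were higher with non-responder replicate 1 left out, and likewise with responder replicate 2 left out. At an unadjusted p under 0.05 there was 1, higher, where 2.57% of all tested genes were higher at that level. Actg1 (gamma actin) had 5.95 and 9.89 CPM in responder and 2.80 and 3.90 CPM in non-responder libraries (log2 fold change 1.24, SE 0.36, edgeR adjusted p = 0.638). Actin genes have near-identical pseudogenes, reads of which were not counted where they fit several places, so this level is uncertain. Srf itself had 71.4 and 67.0 against 61.0 and 52.9 CPM (log2 fold change 0.28, SE 0.17, edgeR adjusted p = 0.836). Actb (beta actin) had 2971 and 3519 against 2722 and 2746 CPM (log2 fold change 0.25, SE 0.24, edgeR adjusted p = 0.896).

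**Figure D5:**
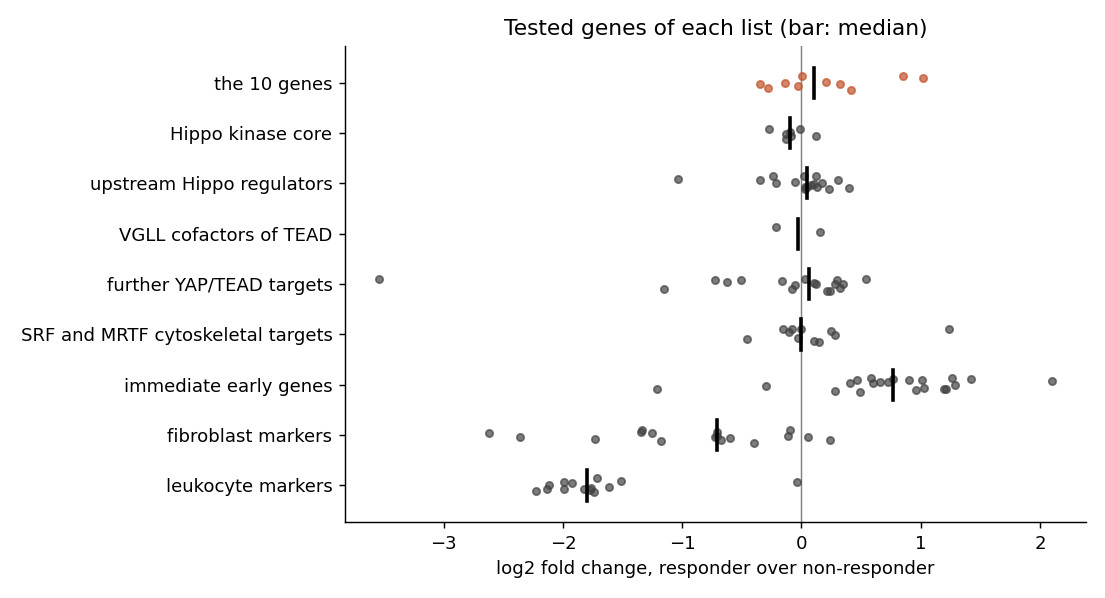
Log2 fold change of responder over non-responder for each tested gene (points) and the median (bar) of the 10 genes and of 8 lists. The medians of the pathway lists lie between -0.10 and 0.07, that of immediate early genes at 0.76 (0.31 with responder replicate 2 left out), and those of fibroblast and leukocyte markers below 0.

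Genes with a profile like that of Tead4 or Ctgf were sought among 9730 tested genes of at least 5 CPM on average, by the root mean square difference of log2 CPM after centring each gene on its mean over the 4 libraries. Among the nearest to Tead4 were Gdnf, a neurotrophic factor (0.022), Rab27b, a small GTPase of secretion (0.055), Tufm, a mitochondrial elongation factor (0.070) and Wnt7b, a Wnt ligand (0.076). Gdnf had 95.3 and 88.7 CPM in responder and 49.8 and 53.9 CPM in non-responder libraries. In all, 8 genes lay within 0.1 of Tead4 and 90 within 0.2. Nearest to Ctgf were Enpp2, the lysophospholipase autotaxin (0.14), Aire (0.21), Ampd3 (0.23), Ebf1 (0.24) and Cmklr1 (0.24), and only Enpp2 was within 0.2. Enpp2 had 124 and 49.7 CPM in responder and 51.2 and 118 CPM in non-responder libraries. With 4 libraries such likeness is a description of these samples.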

How the data were processed

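The deposited values are raw counts of reads per gene, 1 file per library and not pooled. Reads were counted by the authors with featureCounts 1.6.1, reverse-stranded (setting 2), on Ensembl release 91, per the file headers; multi-mapping reads were not asked for. STAR and the mm10 (GRCm38) build are named in the submitters' processing notes, with no settings. The exon length column of the deposited files gave TPM. Symbols were matched for 53274 of 53379 identifiers, the identifier with most reads carrying a repeated symbol.

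Genes kept by filterByExpr (minimum count 10), 13792 in all, were fitted with edgeR 4.0.16 in R 4.3.3 on all 4 libraries, scaled by the trimmed mean of M-values (TMM, factors 0.952 to 1.036), with group as the only term in a robust quasi-likelihood model. The SE is the log2 fold change over the square root of F. The common biological coefficient of variation was 0.216. DESeq2 1.42.0, limma-voom (limma 3.58.1), other scalings and filters, the replicate number as a block and each library left out were alternatives. The code was tested on simulated data. With a library left out, the lone one of its group is taken to have the spread of the other group.

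The 10 genes, the lists and the tests were chosen with earlier results of these data known. Named beyond the 10 were the 3 genes of smallest p in each pathway list and the 5 nearest profiles of Tead4 and Ctgf, without predicted genes; 1 of these is not reported here. Spans of the 10 genes overlap 1 same-strand gene, at Tead1. Skin and muscle markers, also checked, summed to 11.3 and 9.47 CPM in responder and 7.92 and 10.0 CPM in non-responder libraries. Sequences and motif positions come from the RefSeq promoter table.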

Additional observations from a re-analysis of the deposited data

How the results depend on the processing

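The count of genes past an adjusted p of 0.05, 0 with edgeR, was also 0 with limma-voom, RLE, upper-quartile or library-size scaling and a filter of 5 CPM, but 62 with DESeq2, 212 with no low-count filter and 41 to 516 with 1 library left out. With the replicate number as a block it was 32. Same-numbered libraries deviated together across genes (correlation 0.37), but 2 pairs do not show that the numbers pair the samples. The kinase core and VGLL lists had 0 calls throughout. With no filter, where 29612 genes were tested, Fat4 (1 upstream gene) and Igfbp3 (1 target) were among the 212 called. With each library left out in turn, the log2 fold change ran from -1.44 to -0.45 for Fat4, an upstream gene. Among further targets it ran from -2.01 to 1.21 for Tgfb2 and from -0.68 to -0.32 for Rbms3. It ran from -1.47 to -0.09 for F3 and from -8.26 to -1.78 for Igfbp3. For Actg1, a cytoskeletal target, it ran from 0.83 to 1.56. Each of these genes was called in some such fit. The cause of these shifts was not tested. Of 119 log2 fold changes of the 10 genes over 12 alternatives, 12 had another sign than the reported one. The order of levels held for 6 of the 10 genes in non-responder replicate 2 alone, and for 8 to 10 in each other library. The motif ACATTCC was in 3 windows against 6 for GGAATG. Ctgf, with 38 to 123 reads, has wide counting intervals.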
